A study of Homo sapiens with 16 samples.

Results

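The comparison described here is that of HCT116 cells given EPZ-5676 together with HMBA against HCT116 cells given HMBA alone. HCT116 is a human colorectal carcinoma cell line. EPZ-5676 (pinometostat) inhibits DOT1L, and HMBA (hexamethylene bisacetamide) is a small polar differentiating agent. The comparison uses 5 of the 16 RNA-seq libraries of the series, which form 8 groups of 2. With EPZ-5676 and HMBA there were 1 library of cells carrying a control shRNA (shCTL, replicate 2) and 2 libraries of cells carrying an shRNA against NELFE (shNELFE, replicates 1 and 2). With HMBA alone there was 1 library of each (shCTL replicate 2 and shNELFE replicate 2). All 5 libraries had HMBA and an shRNA, so the only added agent is EPZ-5676, and a term for the shRNA was fitted. The 1 library numbered 1 was among those with EPZ-5676, so replicate number and EPZ-5676 are partly confounded. Doses and times of treatment and the number of clones or independent cultures are not given in the labels. The p-values therefore measure only the spread between these libraries, which may be technical.

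DOT1L is the methyltransferase that places methyl groups on lysine 79 of histone H3 within the bodies of transcribed genes. It works with AF9, ENL and AF10 (genes MLLT3, MLLT1 and MLLT10) and is tied to the super elongation complex, which holds the kinase P-TEFb (CDK9 with cyclin T1). P-TEFb frees RNA polymerase II from the pause that NELF, with its RNA-binding subunit NELFE, helps to hold. HMBA is known to free P-TEFb from the 7SK particle and to raise HEXIM1. In leukaemias with rearranged KMT2A, inhibition of DOT1L lowers HOXA cluster genes and MEIS1.

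The 5 libraries were chosen by their expression profile, which is a description of the choice and not a result. Pearson's r of log2 CPM (counts scaled to library totals) over genes ran from 0.979 to 0.990 over the 10 pairs of these libraries. Between them and the 7 libraries numbered 1 that were left out, it ran from 0.735 to 0.785 over 35 pairs. Replicates 1 and 2 of shNELFE with EPZ-5676 and HMBA had an r of 0.982, and replicates 1 and 2 of the other 7 groups had an r of 0.741 to 0.798. The correlations are across genes, which are not independent. Total counts of the 5 libraries ran from 13647819 to 17867037, so that 3 counts, taken as the floor, correspond to 0.168 to 0.220 CPM, which covers counting error only. Epithelial carcinoma markers (8 of 8, among them EPCAM, CDH1 and KRT8) summed to 5253 CPM in the shCTL library and to 8305 and 4868 CPM in shNELFE replicates 1 and 2 with EPZ-5676 and HMBA, against 5436 and 5624 CPM in the shCTL and shNELFE libraries with HMBA. The sum was above the HMBA libraries in shNELFE replicate 1 alone and below both in the other 2. The 11 mesenchymal or fibroblast markers summed to 84.5 to 104.2 CPM with EPZ-5676 and HMBA and to 64.0 to 82.8 CPM with HMBA, of which COL1A1 and FN1 gave most, and 7 of the 11 were under 1 CPM in every library, with LUM at 0. The 6 leukocyte markers summed to 15.2 to 23.2 CPM with EPZ-5676 and HMBA and to 19.9 to 30 CPM with HMBA, nearly all from CD68, with CD3E at 0. The 4 endothelial markers summed to 11.6 to 15.1 CPM with EPZ-5676 and HMBA and to 11.2 to 12.1 CPM with HMBA, mostly from PECAM1. In bulk RNA, fewer cells of a type and less RNA per cell cannot be told apart.

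The target of the shRNA followed the labels. NELFE was at 67.8 CPM in the shCTL library and at 13 and 14.8 CPM in shNELFE replicates 1 and 2 with EPZ-5676 and HMBA, against 72.0 CPM in the shCTL and 17.7 CPM in the shNELFE library with HMBA. All 3 shNELFE libraries were low and both shCTL libraries high. EPZ-5676 acts on the DOT1L protein, so the DOT1L transcript is no check of the drug. DOT1L was at 28.8, 26.2 and 33.5 CPM with EPZ-5676 and HMBA and at 22.9 and 30.3 CPM with HMBA, and these ranges overlap. Both were below the 83.4 and 94.1 CPM of the shCTL and shNELFE libraries with DMSO, the vehicle.

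With EPZ-5676 on top of HMBA, GRAMD1B, NHS, NR4A2, CPA4 and DHRS2 were among the genes that stood higher in all 3 libraries, and among those that stood lower were PRKACB, IGF2BP3, NR2F1 and WWTR1. GRAMD1B, which encodes a carrier of cholesterol from the plasma membrane to the endoplasmic reticulum, had a log2 fold change of 2.39 (SE 0.22). PRKACB, a catalytic subunit of protein kinase A, had a log2 fold change of -1.25 (SE 0.14). No gene passed the test across all genes in the 5 libraries. Of 14210 genes tested with edgeR's quasi-likelihood test and Benjamini-Hochberg adjustment, 0 (0.0%) had an adjusted p under 0.05, and 439 (3.09%) had an unadjusted p under 0.05, where 710 would be at that level with no difference anywhere. The smallest adjusted p of edgeR were 0.306 for GRAMD1B and 0.499 for PRKACB. limma-voom called 0 genes and DESeq2 called 7, of which 6 were higher and 1 lower. The 7 included GRAMD1B, NHS, CPA4, DHRS2 and DKK1 among the higher and PRKACB as the lower one. All 3 libraries with EPZ-5676 and HMBA lay above both with HMBA for 1132 genes (7.97%) and below both for 1307 genes (9.2%).

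One library with both compounds stood apart from its replicate. The biological coefficient of variation of the fit was 0.173 with all 5 libraries and 0.0576 without shNELFE replicate 1. Over 10633 genes with at least 5 CPM, shNELFE replicate 1 with both compounds was at least 1.5-fold apart from replicate 2 of its own group for 2244 genes (21.1%). It was that far apart from the shNELFE library with HMBA for 1369 genes (12.9%). shNELFE replicate 2 with both compounds differed from the same HMBA library by that much for 470 genes (4.42%), and the shCTL pair did for 164 genes (1.54%). The shNELFE and shCTL libraries with HMBA, 1 of each, were that far apart for 548 genes (5.15%). The counts of mitochondrial genes were 10.1% of the total in the shCTL library and 12.2% and 9.93% in shNELFE replicates 1 and 2 with both compounds, against 8.87% in the shCTL and 9.86% in the shNELFE library with HMBA. The share was highest in shNELFE replicate 1, and its part in the results was not tested.

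**Figure D1:**
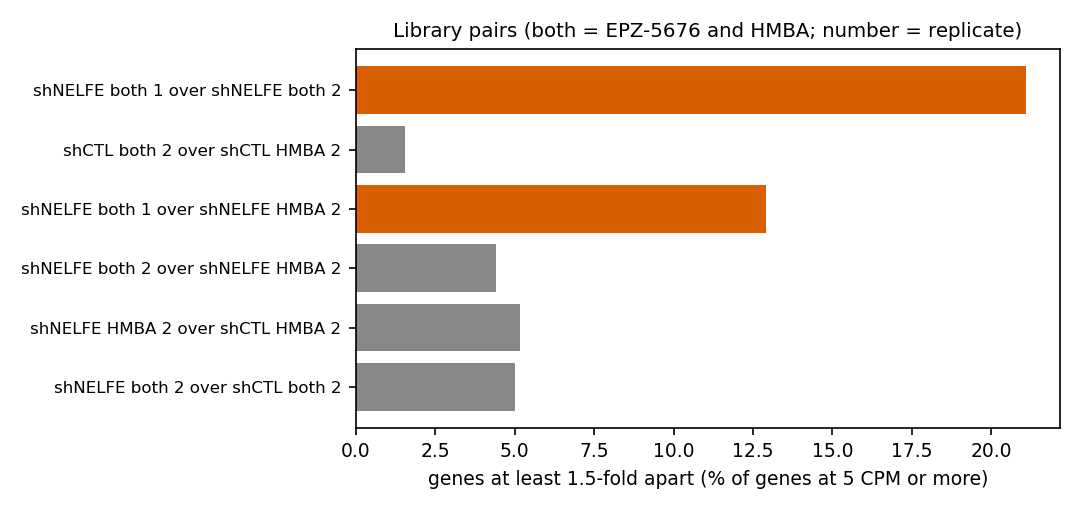
Percentage of the 10633 genes with at least 5 CPM that differed by at least 1.5-fold (on CPM plus 0.5) between the 2 libraries named at the left, where "both" is EPZ-5676 and HMBA and the number is the replicate. Orange bars hold shNELFE replicate 1 with both compounds, which was farther from its own replicate (21.1%) than any other pair plotted.

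The 4 libraries numbered 2 hold 1 library for each combination of shRNA and treatment, and a fit on these, made after the result above was seen, is described from here on as the 4-library fit. It has 1 residual degree of freedom, its only measure of spread being how far the EPZ-5676 difference in shNELFE cells departs from that in shCTL cells, and it has no replicate of any combination. Of 14049 genes, edgeR called 461 (3.28%) at an adjusted p under 0.05, 216 higher (1.54%) and 245 lower (1.74%). Of these, 60 were higher and 33 lower by at least 1.5-fold, and 23 higher and 4 lower by at least 2-fold. The count moved to 817 with another scaling (RLE) and to 87 with DESeq2, where 32.2% were higher in place of 46.9%. Replicate 1 of shNELFE with both compounds took no part in this fit, but it is set against the same shNELFE library with HMBA. Of the 207 called higher genes with at least 5 CPM, 100 were higher than the HMBA library of the same shRNA in all 3 pairs, and of the 242 called lower 170 were lower in all 3. The pairs numbered 2 made the calls and the third shares a library with them, so these counts describe the calls and support nothing. In this text "rose" and "fell" refer to calls in the 4-library fit, and none of them passed in the 5 libraries by edgeR.

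The largest rises were found by a rule that took the 12 genes with the largest fold change in each direction among those called, with at least 5 CPM and the same direction in all 3 pairs. GRAMD1B (hg38, GENCODE 29, chr11:123358428-123627774, plus strand) was at 28.8 CPM in the shCTL library and at 12.03 and 14.7 CPM in shNELFE replicates 1 and 2 with EPZ-5676 and HMBA, against 5.17 CPM in the shCTL and 2.73 CPM in the shNELFE library with HMBA. The 2 groups did not overlap, and within both shRNAs the libraries with EPZ-5676 were the higher ones. The log2 fold change was 2.46 (SE 0.16, adjusted p = 2.93e-05 by edgeR) in the 4-library fit. NHS (chrX:17375420-17735994, plus strand), a regulator of actin at the cell edge, was at 29.2, 13.5 and 18.5 CPM in the same order with both compounds, against 8.87 and 7.0 CPM with HMBA. It rose by 1.59 on the log2 scale in the 4-library fit (adjusted p = 0.000164 by edgeR) and stood at 1.44 (SE 0.24) in the 5 libraries. For both genes the shCTL library with EPZ-5676 was the highest of the 5 and shNELFE replicate 1 the lowest of the 3 with EPZ-5676.

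DHRS2 (chr14:23630115-23645639, plus strand), a short-chain dehydrogenase, was at 134 CPM in the shCTL library and at 239 and 296 CPM in shNELFE replicates 1 and 2 with both compounds, against 67.8 CPM in the shCTL and 124 CPM in the shNELFE library with HMBA. Without HMBA it was at 4.69 and 12.2 CPM in the shCTL and shNELFE libraries with EPZ-5676, against 2.32 and 3.15 CPM with DMSO. It rose by 1.14 on the log2 scale (SE 0.08, adjusted p = 4.68e-05 by edgeR in the 4-library fit). CPA4 (chr7:130293134-130324180, plus strand), a secreted carboxypeptidase, was at 131, 94.0 and 122 CPM with both compounds, against 65.8 and 47.5 CPM with HMBA, with no overlap. It rose by 1.18 on the log2 scale (adjusted p = 7.52e-05 by edgeR in the 4-library fit). The other 8 genes of the rule had log2 fold changes of 0.99 to 1.58 in the 4-library fit and of 0.91 to 1.44 in the 5 libraries. They were NR4A2 (an orphan nuclear receptor of the early response), ARHGDIB (an inhibitor of small GTPases), TMEM132B, the atypical cadherin FAT4, the histone gene H2BC21, CCDC80 (a secreted matrix protein), DNER (a transmembrane protein that binds Notch) and EFR3B (an anchor of the phosphatidylinositol 4-kinase at the plasma membrane). NR4A2 was at 14.5, 7.61 and 10.4 CPM with both compounds, against 4.29 and 4.02 CPM with HMBA. H2BC21 was the one of the 12 whose groups overlapped, at 11.7, 13.9 and 23.2 CPM with both compounds and at 4.43 and 12.3 CPM with HMBA. Of all genes tested, 7.97% were higher in the 3 libraries with EPZ-5676 than in both with HMBA. The rule asks for a rise in all 3 pairs, so it favours such genes.

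PRKACB (chr1:84078062-84238498, plus strand) was at 40.9 CPM in the shCTL library and at 45.4 and 43.3 CPM in shNELFE replicates 1 and 2 with both compounds, against 91.3 CPM in the shCTL and 111 CPM in the shNELFE library with HMBA. The 3 libraries with EPZ-5676 lay close together and well below both others. It fell by 1.25 on the log2 scale (SE 0.07, adjusted p = 2.93e-05 by edgeR in the 4-library fit). WWTR1 (chr3:149517235-149736714, minus strand), which encodes the transcriptional coactivator TAZ, was at 38.4, 36.3 and 38.5 CPM with both compounds, against 62.6 and 71.6 CPM with HMBA. It fell by 0.79 on the log2 scale (adjusted p = 0.000583 by edgeR in the 4-library fit). IGF2BP3, an RNA-binding protein of fetal tissue and tumours, was at 14.8, 13.8 and 18.6 CPM with both compounds, against 27.7 and 34.6 CPM with HMBA. PHLDB2, a cortical anchor for microtubules, was at 47.3, 61.6 and 70.3 CPM with both compounds, against 91.8 and 109.7 CPM with HMBA. The nuclear receptor NR2F1 was at 13.3, 8.44 and 10.7 CPM with both compounds, against 19.4 and 22.6 CPM with HMBA. All 5 genes were lower in the 3 libraries with EPZ-5676 than in both with HMBA, as were 9.2% of all genes tested, and the rule, which asks for a fall in all 3 pairs, favours such genes.

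The other 7 falls had log2 fold changes of -0.97 to -0.75 in the 4-library fit and of -1.05 to -0.54 in the 5 libraries. Among them were ODAD2 (a docking factor of outer dynein arms in cilia), CLIP4, the retinal reductase DHRS3, the protein kinase C gene PRKCH, SQLE (squalene epoxidase) and the protocadherin PCDH7. SQLE and DHRS3 had the smallest change in the 5 libraries (-0.54 and -0.55), and in both shNELFE replicate 1 stood highest of the 3 with EPZ-5676.

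**Figure D2:**
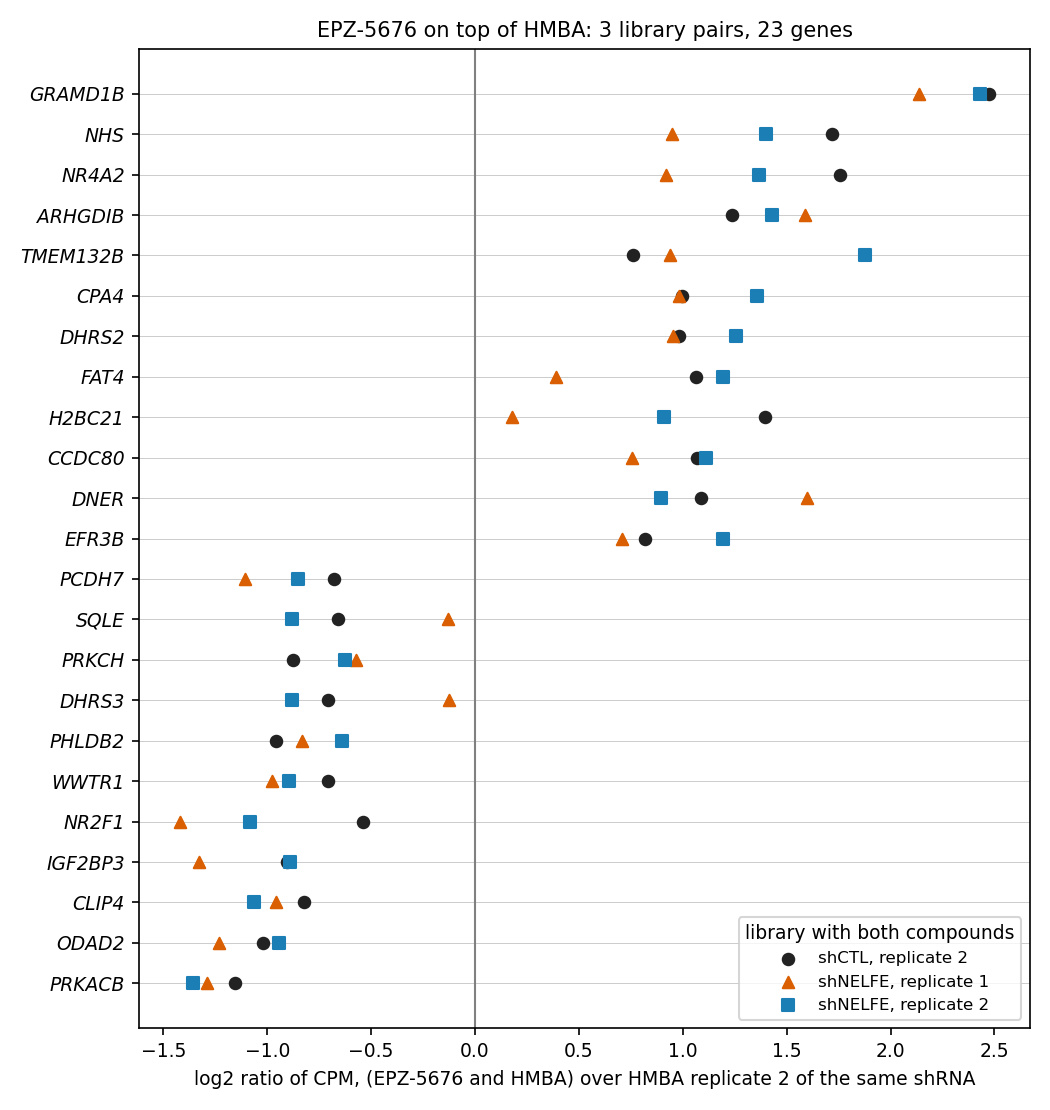
Log2 ratio of CPM for 23 of the 24 largest rises and falls, given by library pair: each library with EPZ-5676 and HMBA over the HMBA library of the same shRNA. Each point is 1 pair, and by the rule that chose the genes all 3 points of a gene lie on the same side of 0.

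**Figure D3:**
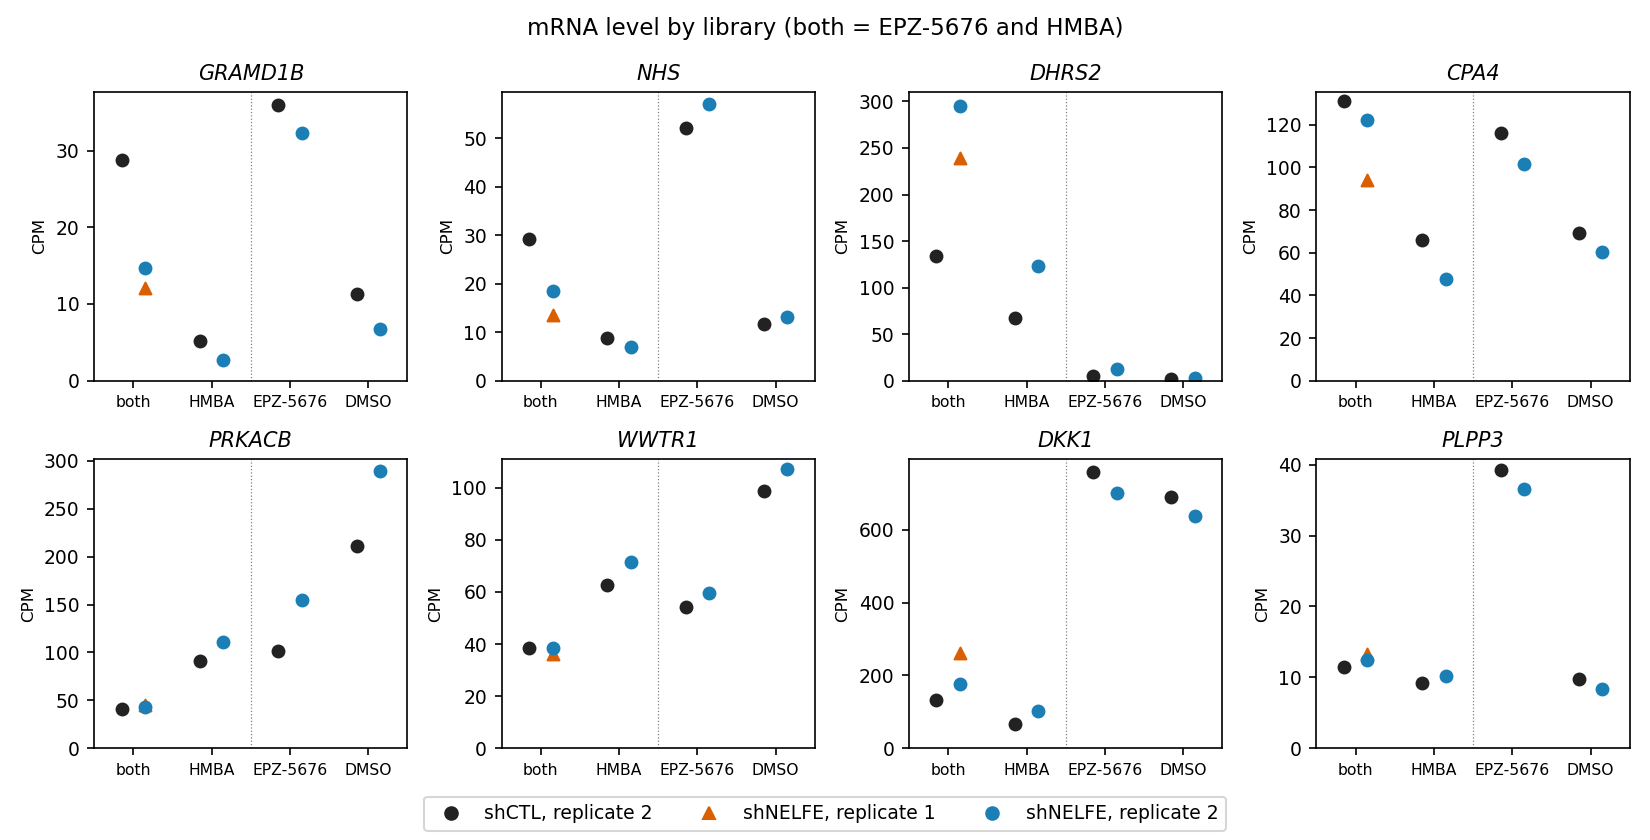
Level in CPM of 8 genes in 9 libraries, with 1 point per library. Columns are the treatments (both compounds, HMBA, EPZ-5676, DMSO), and colours and shapes give the shRNA and replicate. DHRS2 is high where HMBA was given, whereas PLPP3 reaches 39.2 and 36.6 CPM with EPZ-5676 alone and stays at 11.4 to 13.3 CPM with both compounds.

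Genes of the DOT1L and elongation machinery did not pass in either fit. Of the 5 genes of DOT1L and its AF9, ENL and AF10 partners and the 15 measured genes of the super elongation complex and P-TEFb, 0 were called higher and 0 lower in the 4-library fit, with median log2 fold changes of 0.11 and 0.05 there and of -0.02 and -0.03 in the 5 libraries. In the 4-library fit 1.54% of all genes tested were called higher and 1.74% lower. For lists this short, 0 calls are near that share. The median over all genes was 0.00 in the 4-library fit and 0.02 in the 5 libraries. In the 5 libraries the log2 fold change was 0.14 (SE 0.19) for DOT1L, -0.02 (SE 0.27) for MLLT10, -0.06 (SE 0.26) for MLLT3, -0.17 (SE 0.30) for AFF4, the scaffold of the super elongation complex, 0.06 (SE 0.14) for CDK9 and 0.10 (SE 0.18) for its cyclin CCNT1. HEXIM1, the inhibitor of P-TEFb, was at 373, 338 and 380.1 CPM with both compounds and at 369.8 and 385 CPM with HMBA, a difference smaller than the spread (log2 fold change -0.04, SE 0.14). Without HMBA it was at 66.8 to 81.6 CPM. The 12 genes of NELF, DSIF and the PAF1 complex and the 7 of H2B ubiquitination also had 0 called in either direction.

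The growth genes MYC and CDKN1A did not pass, and in both the shNELFE libraries stood above the shCTL ones. MYC was at 32.9, 56.3 and 61.6 CPM with both compounds and at 33.7 and 70.9 CPM with HMBA, and CDKN1A, the inhibitor of cyclin-dependent kinases called p21, at 539, 1001 and 1105 CPM with both and at 569.9 and 1229.9 CPM with HMBA. Their log2 fold changes in the 5 libraries were -0.16 (SE 0.15) and -0.15 (SE 0.14). The 14 CDK inhibitors and G1 cyclins, the 24 genes of G2 and mitosis and the 21 targets of p53 had 0 called. Of the 24 genes of G1/S and DNA replication 1, MCM5, was called lower. In shNELFE replicate 1, though, MCM5 was above the shNELFE library with HMBA (167 against 145 CPM). Of all genes tested, 1.54% were called higher and 1.74% lower in the 4-library fit, so these counts are near that share. The leukaemia genes linked to DOT1L, of which 11 were measured, had 0 called, again near that share. Their median log2 fold change was -0.13 in the 4-library fit and -0.17 in the 5 libraries. HOXA7 was at 2.75, 3.11 and 3.77 CPM with both compounds, against 4.06 and 5.87 CPM with HMBA, without overlap and without passing either test. HOXA9 was at 21.8, 19.6 and 27.1 CPM with both compounds and at 23.3 and 33.9 CPM with HMBA, which overlap.

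Among 30 measured immediate early genes, 6 rose and 2 fell in the 4-library fit, in which 1.54% of all genes tested were called higher and 1.74% lower. The nuclear receptor gene NR4A1 was at 48.7, 56.2 and 44.2 CPM with both compounds, against 29.6 and 31.1 CPM with HMBA, a rise of 0.63 on the log2 scale (adjusted p = 0.00436 by edgeR in the 4-library fit). FOS, a subunit of the factor AP-1, was at 118, 256 and 229 CPM with both compounds and at 99.4 and 156 CPM with HMBA. It rose within both shRNAs, and the groups overlap, with the shNELFE libraries standing higher. The matricellular genes CCN1 and CCN2 and the zinc finger gene EGR1 rose by 0.37, 0.26 and 0.30 on the log2 scale, and EGR1 in shNELFE replicate 1 was below the shNELFE library with HMBA (189.8 against 204 CPM). FOSL1, the AP-1 subunit FRA1, was at 99.9, 116 and 107 CPM with both compounds, against 143 and 157 CPM with HMBA, and fell by 0.53 on the log2 scale. The phosphatase gene DUSP5 fell by 0.42 on the log2 scale. The list's median log2 fold change was 0.08 in the 4-library fit and 0.15 in the 5 libraries.

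Of 23 cholesterol synthesis genes, 0 rose and 6 fell in the 4-library fit, among them SQLE, INSIG1, MSMO1 and FDFT1, with a list median of -0.16 there and of -0.12 in the 5 libraries. Of all genes tested, 1.74% were called lower and 1.54% higher. INSIG1, which retains the sterol sensor in the endoplasmic reticulum, was at 112, 74.6 and 58.3 CPM with both compounds, against 149 and 91.1 CPM with HMBA. MSMO1 and FDFT1 were lower in the pairs numbered 2, but in shNELFE replicate 1 they were above the shNELFE library with HMBA (52.0 against 47.7 CPM and 156 against 152 CPM). Of the 13 fatty acid synthesis genes 2 fell, ELOVL6 and ME1. Of 16 targets of NRF2, 0 rose and 5 fell, among them TKT, GCLM, ME1 and PGD, with a median of -0.17 in the 4-library fit and of -0.15 in the 5 libraries. The glutathione synthesis gene GCLM was at 36.8, 34.5 and 34.9 CPM with both compounds, against 49.4 and 51.0 CPM with HMBA. TKT and PGD, which belong to the pentose phosphate pathway, were above the HMBA library in shNELFE replicate 1.

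Metallothionein genes encode small proteins that bind zinc and copper, and their promoters hold metal response elements, the sites of the zinc-sensing factor MTF1. The list of 5 measured genes also holds the zinc exporter SLC30A1, which is no metallothionein. Of these 5, 2 rose, MT1X and MT1E (1.54% of all genes were called higher). The list median was 0.25 in the 4-library fit and 0.43 in the 5 libraries. The promoters of MT1X and MT2A are shown because these are the 2 genes of the metallothionein cluster that were tested and have a window, and both stand in the results below. The windows run from 250 bases before to 50 after the RefSeq start on GRCh38.p14 (MT1X at chr16:56682220-56682519 and MT2A at chr16:56608334-56608633, both plus strand). Capitals mark the core TGCACNC on either strand, and no 2 matches overlap.
MT1X: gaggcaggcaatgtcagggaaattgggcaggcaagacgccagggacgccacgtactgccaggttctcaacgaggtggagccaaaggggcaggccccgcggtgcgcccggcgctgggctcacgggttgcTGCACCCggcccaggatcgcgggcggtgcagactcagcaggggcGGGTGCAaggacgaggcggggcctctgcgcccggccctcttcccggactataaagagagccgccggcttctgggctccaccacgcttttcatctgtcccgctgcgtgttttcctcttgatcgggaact
MT2A: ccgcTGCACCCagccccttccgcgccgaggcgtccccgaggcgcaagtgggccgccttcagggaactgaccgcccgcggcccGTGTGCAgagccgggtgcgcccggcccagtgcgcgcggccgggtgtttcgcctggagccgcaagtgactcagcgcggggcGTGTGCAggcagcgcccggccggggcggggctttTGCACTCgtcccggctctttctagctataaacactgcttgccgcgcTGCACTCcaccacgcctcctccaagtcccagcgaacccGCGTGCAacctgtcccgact
MT1X had 2 matches in its window and MT2A had 6, and the core is in 12.1% of the 35116 promoter windows of the same length, with 2 or more in 1.61% and 6 or more in 7 windows. Of the 9 genes of the list, 4 had a window. MT1X was at 135, 141 and 98.8 CPM with both compounds, against 82.2 and 57.4 CPM with HMBA, and rose by 0.76 on the log2 scale (adjusted p = 0.000236 by edgeR in the 4-library fit). MT1E was at 519, 465 and 377 CPM with both compounds and at 378 and 318 CPM with HMBA, a rise of 0.36 on the log2 scale with groups that overlap slightly. MT2A was at 1088, 1229 and 889 CPM with both compounds, against 839 and 825 CPM with HMBA, a log2 difference of 0.25 that did not pass (adjusted p = 0.0621 by edgeR). The genes of the cluster are near-identical copies, so reads may have been split between them, and their single values are uncertain. SLC30A1, the zinc exporter that shares the element, had 2 matches and was at 94.1, 132 and 124 CPM with both compounds and at 92.7 and 128 CPM with HMBA.

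Among genes of the WNT and TGF-beta pathways, DKK1 rose and CD44 and SMAD3 fell in the 4-library fit. DKK1 (chr10:52314296-52318042, plus strand), a secreted inhibitor of WNT receptors, was at 134 CPM in the shCTL library and at 262 and 177 CPM in shNELFE replicates 1 and 2 with both compounds, against 67.8 CPM in the shCTL and 101 CPM in the shNELFE library with HMBA. It rose by 0.90 on the log2 scale (adjusted p = 5.96e-05 by edgeR in the 4-library fit), while the libraries without HMBA stood between 638 and 759 CPM. Of the 12 WNT target genes in the 4-library fit, CD44, a receptor for hyaluronan, was the one called lower. It was at 723, 931 and 675 CPM with both compounds and at 855 and 840.1 CPM with HMBA, so that shNELFE replicate 1 stood above both. Of the 17 TGF-beta and BMP genes 0 rose and 2 fell, among them SMAD3, a signal transducer of TGF-beta receptors. SMAD3 was at 52.3, 43.9 and 55.4 CPM with both compounds, against 68.9 and 67.1 CPM with HMBA, with no overlap, and fell by 0.33 on the log2 scale (adjusted p = 0.0434 by edgeR in the 4-library fit). Of the 17 targets of YAP and TAZ, 3 rose (CCN1, TEAD1 and CCN2) and 1 fell, WWTR1, which is itself the coactivator, where 1.54% of all genes were called higher and 1.74% lower. TEAD1, a DNA-binding partner of YAP and TAZ, was at 192, 89.8 and 169 CPM with both compounds and at 156 and 139 CPM with HMBA, so that shNELFE replicate 1 went the other way, and its log2 fold change in the 5 libraries was 0.08 (SE 0.28).

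Of 25 genes of epithelial junctions and keratins, 0 rose and 4 fell in the 4-library fit (DSC2, CLDN4, OCLN and ESRP1), with a median of -0.18 there and of 0.00 in the 5 libraries. Of all genes tested, 1.54% were called higher and 1.74% lower. DSC2 and CLDN4 were above the HMBA library in shNELFE replicate 1. Of 9 measured mesenchymal and fibroblast markers 1 rose, the matrix gene FN1, at 46.0, 36.8 and 37.7 CPM with both compounds, against 28.4 and 24.05 CPM with HMBA. VIM was at 3.33, 8.58 and 5.40 CPM with both compounds and at 2.88 and 4.02 CPM with HMBA. The keratin KRT20, a marker of differentiated colon epithelium, was at 3.20, 5.12 and 3.70 CPM with both compounds, against 1.55 and 1.29 CPM with HMBA, and did not pass (adjusted p = 0.0584 by edgeR in the 4-library fit). Of the 25 semaphorins, plexins and neuropilins, SEMA3C rose and SEMA7A fell. SEMA3C was at 91.9, 71.2 and 91.9 CPM with both compounds, against 53.5 and 62.0 CPM with HMBA, and SEMA7A at 61.8, 80.4 and 63.2 CPM with both, against 85.1 and 94.6 CPM with HMBA. Lists with 1 further call in a direction were neuronal genes (MAP2 higher and SYT1 lower), other histone methyltransferases and demethylases (KDM6A higher), the BCL2 family (BCL2L11 higher) and ribosome biogenesis with MYC targets (NME1 lower). In shNELFE replicate 1, MAP2 (77.2 against 89.0 CPM), KDM6A (52.3 against 71.4 CPM), BCL2L11 (74.8 against 94.3 CPM) and NME1 (621 against 459 CPM) stood on the other side of the shNELFE library with HMBA. Lists with 0 called in either direction were the ATF4 amino acid response (18 measured), the unfolded protein response (19), glycolysis and hypoxia (25), interferon-stimulated genes (20), NF-kB targets (11), intestinal differentiation (5), leukocyte and endothelial markers (4), cytosolic ribosomal proteins (75) and mitochondrially encoded mRNAs (13). The 13 mitochondrial mRNAs all had a positive log2 fold change in the 5 libraries, with a median of 0.25, and 0.12 in the 4-library fit. Of all 14210 genes tested in the 5 libraries, 7734 had a positive one. Mitochondrial counts had their highest share in shNELFE replicate 1 with both compounds (12.2%), which the 4-library fit leaves out.

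**Figure D4:**
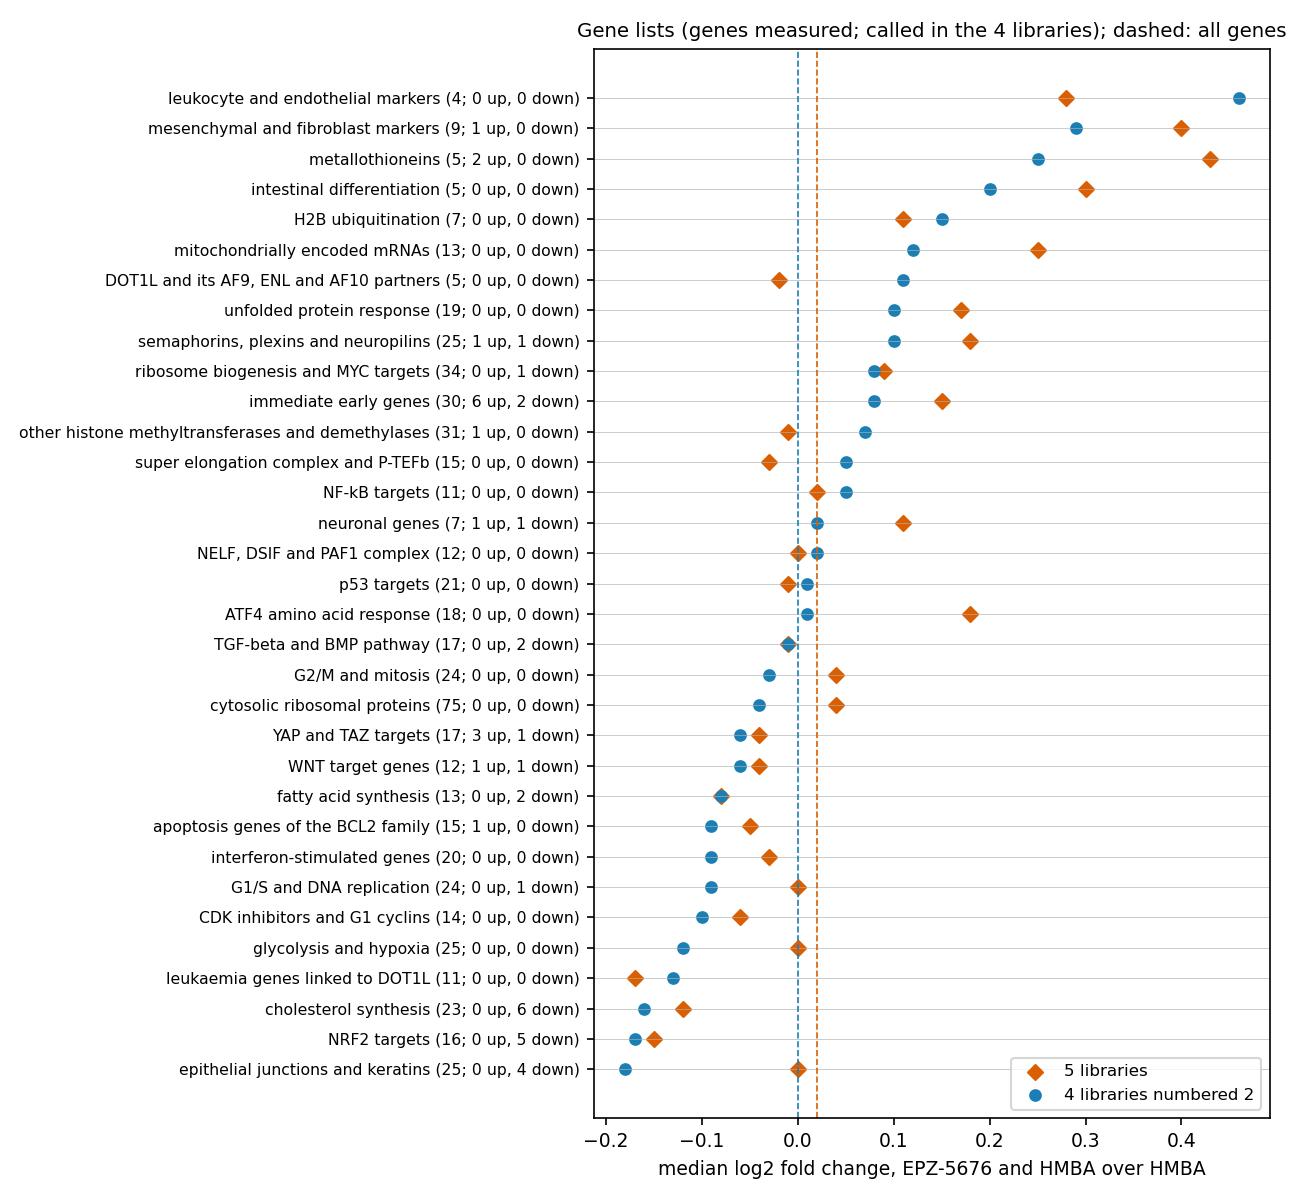
Median log2 fold change of each gene list, EPZ-5676 and HMBA over HMBA, in the 4-library fit and in the 5 libraries, with the medians of all genes as dashed lines. Numbers beside each name are the genes measured and those called higher and lower in the 4-library fit.

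The called genes can be described further by their structure and level. The 216 called higher had a median gene length of 36.1 kb and the 245 called lower of 50.6 kb, against 30.6 kb over all genes tested. Their median exon length was 6.35 and 5.32 kb, against 4.9 kb. Their median level was 44.7 and 73.3 CPM, against 19.6 CPM over all genes tested. The filter and the test both depend on this level, so it is no finding. The part of the level in these lengths was not tested. Protein-coding genes made up 91.7% and 96.7%, against 89.1%. The median number of CpG pairs in the RefSeq promoter window was 27 and 26, against 26, for the 166, 189 and 10546 genes that have a window.

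Whether EPZ-5676 acts alike with and without HMBA was asked by a product term in 9 libraries, the 8 numbered 2 and shNELFE replicate 1 with both compounds. Of 14912 genes, edgeR called 0 (0.0%), with 385 at an unadjusted p under 0.05 where 746 would be at that level with no difference anywhere. DESeq2 called 1 and limma-voom 0. The EPZ-5676 term of the same fit, which is its effect without HMBA, called 1 gene (0.00671%), PLPP3. The smallest p of the product was also that of PLPP3 (chr1:56494747-56645301, minus strand), a phosphatase of lipid phosphates at the cell surface. PLPP3 was at 11.4 CPM in the shCTL library and at 13.3 and 12.4 CPM in shNELFE replicates 1 and 2 with both compounds, against 9.16 and 10.1 CPM with HMBA. Without HMBA it was at 39.2 and 36.6 CPM in the shCTL and shNELFE libraries with EPZ-5676, against 9.71 and 8.35 CPM with DMSO. The product term was -1.71 (SE 0.22, adjusted p = 0.358 by edgeR) in the 9 libraries. In the 8 libraries numbered 2 alone it was -1.77 (SE 0.19, adjusted p = 0.00203 by edgeR), where 5 genes (0.0338%) were called. The calls there also took in SLC38A2, an amino acid carrier, and the pseudogene MSL3P1, whose product terms were 0.78 and 1.17, and 2 genes without a symbol that were near 0 in some libraries. SLC38A2 was at 106, 101 and 130.3 CPM with both compounds and at 101 and 116 CPM with HMBA, while without HMBA it was at 282 and 303 CPM with EPZ-5676, against 458 and 464 CPM with DMSO.

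Other genes with a small p of the product term in the 9 libraries, none of which passed, were DSC3 (1.09, SE 0.20), the lysophosphatidic acid receptor LPAR1 (-1.16, SE 0.23), the corepressor TLE3 (-0.83, SE 0.17) and RREB1 (-1.05, SE 0.24). DSC3 was at 21.6, 23.9 and 20.5 CPM with both compounds and at 18.4 and 19.4 CPM with HMBA, while without HMBA it was at 15.8 and 19.7 CPM with EPZ-5676, against 29.8 and 36.4 CPM with DMSO. GRAMD1B, NHS and PRKACB differed in the same direction with and without HMBA. Without HMBA, GRAMD1B was at 36.0 and 32.3 CPM with EPZ-5676, against 11.3 and 6.69 CPM with DMSO, NHS at 52.2 and 57.1 CPM, against 11.8 and 13.2 CPM, and PRKACB at 102 and 154 CPM, against 211 and 289 CPM. Their product terms were 0.32 (SE 0.34), -0.74 (SE 0.38) and -0.30 (SE 0.19), which did not pass and do not show that the effects were alike.

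The 4 libraries numbered 2 without HMBA (EPZ-5676 and DMSO) share no library with the 4 with HMBA and were fitted apart. Of 13999 genes, edgeR called 2141 in that fit, 989 higher and 1152 lower. Like the 4-library fit, it has 1 residual degree of freedom and no replicate of any combination. In the 9 libraries the EPZ-5676 term without HMBA called 1 gene, so this count depends strongly on the fit. The counts of these fits do not measure whether the effect was larger with or without HMBA. Among 451 genes called in the 4-library fit and tested in both, 362 (80.3%) had the same sign of the log2 fold change without HMBA, against 7868 of 13322 (59.1%) over all genes. For those called lower it was 220 of 244 (90.2%), and for those called higher 142 of 207 (68.6%). The median log2 fold change of the called higher genes was 0.43 with HMBA and 0.10 without, and that of the called lower genes -0.40 with HMBA and -0.26 without. Genes chosen for a large change in one fit are set against values that were not chosen, so the smaller medians without HMBA are a description. Over genes with at least 5 CPM, Spearman's correlation between the fits was 0.71 across the 447 called, 0.38 across the 205 called higher alone, 0.39 across the 242 called lower alone and 0.30 across all 10748. The value over all called genes joins sets chosen for opposite signs; the points of a fit share the same 4 libraries and their depth, so no p is given.

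**Figure D5:**
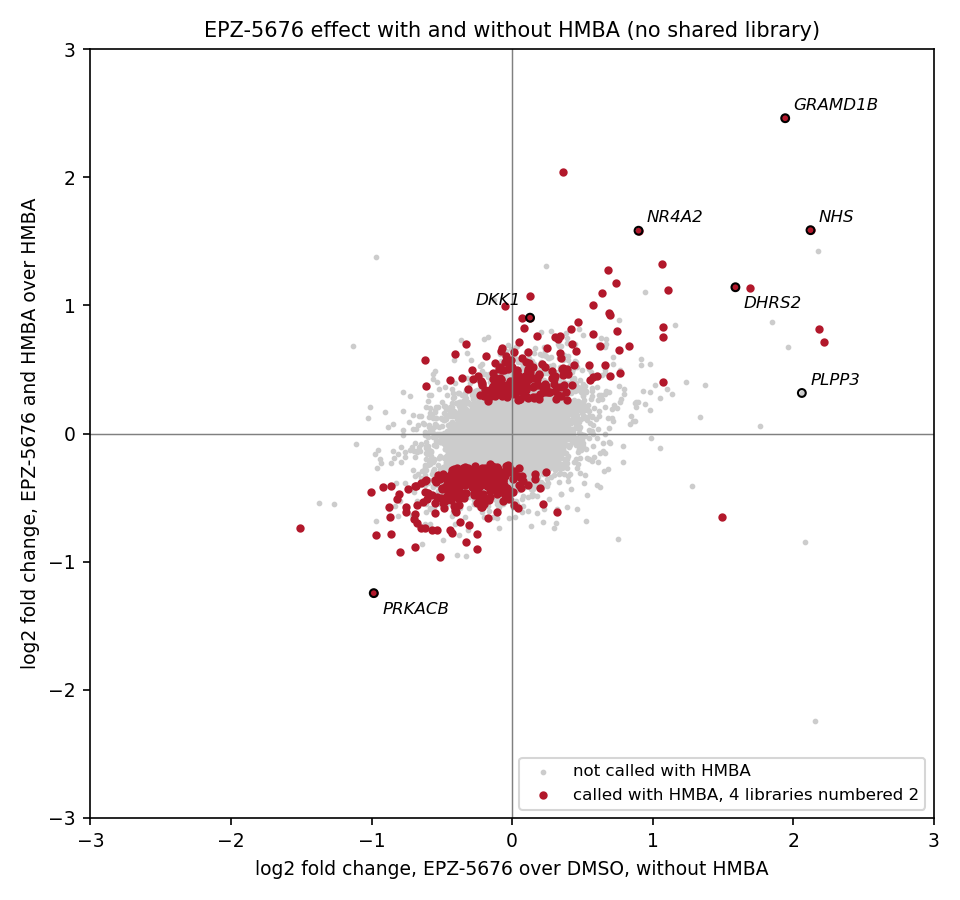
Log2 fold change of EPZ-5676 and HMBA over HMBA (vertical) against that of EPZ-5676 over DMSO (horizontal) for genes with at least 5 CPM, each from 4 libraries numbered 2 with none in common. Red points are genes called with HMBA. GRAMD1B and NHS are at the upper right, PRKACB at the lower left, and PLPP3 lies far to the right near 0 on the vertical axis.

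Whether the EPZ-5676 effect under HMBA depended on the shRNA was asked by a product term of EPZ-5676 and shNELFE in the 5 libraries, with 1 residual degree of freedom, which comes from the shNELFE replicates with both compounds. Of 14898 genes, edgeR called 15 (0.101%), 10 higher and 5 lower, while 97 had an unadjusted p under 0.05 where 745 would be at that level with no difference anywhere. DESeq2 called 0 and limma-voom 21. The 6 genes with at least 5 CPM and the smallest p each had a library at or near 0 CPM next to others with several CPM, so their fitted values are no measure of size. Their values are given with the results flagged for a closer look.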

How the data were processed

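Poly(A) RNA was made into stranded TruSeq libraries, per the labels' protocols. The authors deposited raw read counts per gene (60676 Ensembl identifiers, 16 libraries), per the file headers. The submitters' processing notes name HTSeq 0.6.1p1, STAR 2.4.0b, edgeR and Cufflinks 2.1.1 and the hg38 build, without roles. The gene models' release and the strand setting of the counting are not given in sources used here. A symbol was found for 42009 identifiers and a GENCODE 29 position for 58503.

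The counts were used as deposited in R 4.3.3 with edgeR 4.0.16 (glmQLFit and glmQLFTest, TMM scaling, filterByExpr, Benjamini-Hochberg over all genes tested, threshold 0.05), with terms for EPZ-5676 and shRNA. Products of EPZ-5676 with HMBA and with shRNA were fitted as further terms. DESeq2 1.42.0, limma-voom (limma 3.58.1), RLE scaling, unscaled totals, no filter, a block for the replicate number and leaving out 1 library at a time were alternatives. The code was tested on simulated counts. Levels are CPM on totals TMM-scaled over 9 libraries. The counts of genes at least 1.5-fold apart between libraries used CPM plus 0.5. The plotted ratios by library pair used CPM with nothing added.

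Libraries, gene lists (33, with 715 entries) and rules were chosen with earlier results of these data known. Named genes were 10 fixed genes, the 12 largest rises and falls among called genes with at least 5 CPM and the same direction in 3 of 3 pairs within an shRNA, up to 4 members of each list by p, and the 6 smallest p of each product. Since the fit on 5 libraries called no gene, the rule for rises and falls was applied to the 4 libraries numbered 2, after seeing the data. Clone, locus, pseudogene and antisense names were left out of that rule. Promoter windows are from RefSeq (GRCh38.p14). Same-numbered libraries could not be checked for pairing within the comparison, since 1 of its 5 libraries is numbered 1. The 7 libraries left out were used only in the alternatives on all 8 libraries with HMBA and in the correlations. Results for some genes are not reported here.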

Additional observations from a re-analysis of the deposited data

Results flagged for a closer look

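The product of EPZ-5676 and shNELFE under HMBA, a test of whether the EPZ-5676 difference in shNELFE cells differs from that in shCTL cells, passed in edgeR's quasi-likelihood test for 6 genes named by the rule. It was 8.27 on the log2 scale for THSD8, -10.31 for the pseudogene PKD1P1, 10.55 for ENSG00000203812, -9.44 for ENSG00000272196, 9.72 for ENSG00000283765 and 9.73 for ENSG00000284057. Each of the 6 had at least 1 of the 5 libraries at or near 0 CPM, so these fitted values depend on the prior count and are no bound. THSD8 was at 0.0641 CPM in the shCTL library and at 23.3 and 2.96 CPM in shNELFE replicates 1 and 2 with EPZ-5676 and HMBA, against 8.20 CPM in the shCTL and 4.75 CPM in the shNELFE library with HMBA. The shNELFE replicates with both compounds lay on either side of the HMBA library. PKD1P1 was at 4.42 CPM in the shCTL library and at 0 and 4.22 CPM in shNELFE replicates 1 and 2 with both compounds, against 0 CPM in the shCTL and 5.47 CPM in the shNELFE library with HMBA, and as a pseudogene it may share reads with near-identical copies. ENSG00000272196 was at 7.75, 14.3 and 29.1 CPM with both compounds, against 0 and 17.6 CPM with HMBA, and ENSG00000203812 at 3.91, 11.8 and 5.55 CPM with both compounds, against 6.06 and 0 CPM with HMBA. DESeq2 called 0 genes for this product.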

How the results depend on the processing

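In the 5 libraries, the count of genes called for EPZ-5676 on top of HMBA was 0 with TMM, with RLE scaling, unscaled totals, limma-voom, the spread of 9 libraries, and all 8 libraries with HMBA. It was 15 with no filter and 7 with DESeq2. Leaving out 1 library gave 13 to 461 calls: 15 without shCTL HMBA replicate 2 or shCTL EPZ-5676 and HMBA replicate 2, 13 without shNELFE HMBA replicate 2, 97 without shNELFE EPZ-5676 and HMBA replicate 2, and 461 without replicate 1 of that group. Where this left a combination with 1 library, that library is assumed to vary like the others. With the replicate block it was 1418 (759 higher, 659 lower), but 1 of the 5 libraries is numbered 1, so the block fits that library alone and no paired analysis was possible. With the block in all 8 libraries with HMBA it was 0. The 461 calls of the 4 libraries numbered 2 became 817 with RLE, 1108 with no filter, 87 with DESeq2 and 162 (35.8% higher) with one spread over the 8 numbered 2, and leaving out a library was not possible for want of residual degrees of freedom. The product with HMBA had 0 calls, 5 with no filter, 1 with DESeq2, 5 with the replicate block and 0 to 5 when leaving out a library (5 without shNELFE EPZ-5676 and HMBA replicate 1, 2 without shNELFE EPZ-5676 replicate 2). In the 9 libraries, EPZ-5676 without HMBA had 1 call (PLPP3), 94 with no filter, 55 with DESeq2 and 462 with the block. Leaving out a library gave 0 to 457 calls. There were 457 without shNELFE EPZ-5676 and HMBA replicate 1, and 4 without shNELFE EPZ-5676 replicate 2. There were 2 without shCTL EPZ-5676 and HMBA replicate 2, and 0 without either DMSO library or shCTL EPZ-5676 replicate 2. The product with shRNA had 15 calls, 23 with no filter and 0 with DESeq2. The cause of these moves was not tested. Of 169 named genes, 149 kept their direction in 12 settings other than those on all 8 libraries with HMBA, among them the 24 largest rises and falls, whose rule partly fixes the direction. On all 8 libraries with HMBA, which take in libraries of a different profile, 58 of the 169 had the opposite sign, and 67 with the replicate block. Among them CLIP4 stood at 0.50 and 1.97 and IGF2BP3 at 0.16 and 3.13 on the log2 scale, and WWTR1 at 0.37 with the block, none of which passed there. With 13647819 to 17867037 counts a library, differences of genes at or under 0.168 to 0.220 CPM (3 counts) were not detectable.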
